A study of Mus musculus with 8 samples.

Results

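Fibroblast marker genes were examined in RNA from mouse skin tumour cells that had been sorted for Epcam, a cell surface protein of epithelia. The set held 9 genes, Pdgfra, Pdgfrb, Dcn, Lum, Dpt, Fap, Mfap5, Fbln1 and Ogn, taken by name from the platform annotation. They were read by 13 of the 28898 probe sets that name 1 gene, which cover 17097 genes in all. Each of 8 Affymetrix PM strip arrays for the mouse genome was read against its own background, the highest of 44 control probe sets that match no mouse gene.

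The 8 arrays formed 4 groups of 2. Papillomas, benign tumours of the skin, came as a control labelled NR2F2 WT and as tumours overexpressing NR2F2 (gain of function, GOF), an orphan nuclear receptor. Squamous cell carcinomas came as a Cre- control labelled NR2F2 WT and as loss of function (LOF) tumours, labelled NR2F2 KO and given as K5CreER;NR2F2fl/fl. In K5CreER the keratin 5 promoter, active in basal cells of stratified epithelia, drives an inducible Cre. The promoter behind the overexpression and the age, strain and treatment of the mice are not given in the sources used here.

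Fibroblasts make the collagen-rich matrix of the dermis and of tumour stroma, and they do not normally carry Epcam. Of the markers, Pdgfra and Pdgfrb are the receptors for platelet-derived growth factors, with Pdgfrb also marking pericytes. Dcn, Lum and Ogn encode decorin, lumican and osteoglycin, small leucine-rich proteoglycans that bind collagen fibrils. Dpt encodes dermatopontin, a dermal matrix protein. Fbln1 and Mfap5 encode fibulin 1 and a microfibril-associated glycoprotein, both parts of elastic fibres and microfibrils, and Fap encodes a membrane protease of activated fibroblasts. In a bulk sample, fewer cells of a type and less RNA per cell cannot be told apart.

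The promoters of 4 of the 9 genes were held in the RefSeq table (GRCm38.p6), as the 250 bases before each start site. Those of Dpt, Ogn and Fbln1 are shown because Dpt and Ogn varied between papilloma arrays and Fbln1 hardly did. Capitals mark CANNTG, the E-box, read on both strands as it is its own reverse complement, a motif picked after the sequences were seen. The windows lie on the plus strand at chr1:164796413-164796662 (Dpt), chr13:49607765-49608014 (Ogn) and chr15:85205699-85205948 (the first of 2 Fbln1 starts).
Dpt: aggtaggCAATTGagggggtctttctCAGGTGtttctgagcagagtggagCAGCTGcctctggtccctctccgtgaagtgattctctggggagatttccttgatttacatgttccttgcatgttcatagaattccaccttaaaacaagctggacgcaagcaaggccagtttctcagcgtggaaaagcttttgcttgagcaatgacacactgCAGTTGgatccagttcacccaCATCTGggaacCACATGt
Ogn: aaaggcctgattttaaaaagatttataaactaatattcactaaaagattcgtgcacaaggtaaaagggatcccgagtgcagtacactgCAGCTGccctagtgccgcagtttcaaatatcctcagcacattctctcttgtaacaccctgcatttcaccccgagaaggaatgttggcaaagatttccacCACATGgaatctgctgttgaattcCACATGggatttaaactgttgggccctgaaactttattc
Fbln1: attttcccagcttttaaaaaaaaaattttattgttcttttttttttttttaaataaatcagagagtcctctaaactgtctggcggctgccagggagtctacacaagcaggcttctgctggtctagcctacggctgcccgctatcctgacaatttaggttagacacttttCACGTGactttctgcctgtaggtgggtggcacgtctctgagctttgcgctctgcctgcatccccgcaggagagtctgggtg
The Dpt window held 6 E-boxes, a count reached by 0.274% of 32851 promoter windows of this length. The Ogn window held 3, as did or exceeded 12.2% of windows, and the Fbln1 window shown held 1, against 66.2% of windows with at least 1. The overlapping window of the other Fbln1 start held 2, and the Pdgfra window, not shown, held 1. The letters AGGTCA, a nuclear receptor half-site, were in none of the 4 genes' windows on either strand, against 14.0% of all windows. These matches describe letters alone.

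The targeted gene was read first. The brightest of 4 Nr2f2 probe sets read 2.80 and 2.55 in control papilloma and 11.43 and 11.47 in GOF papilloma. In carcinoma it read 7.93 and 8.14 in the controls and fell by 3.15 on the log2 scale in LOF (limma adjusted p = 0.00475). Papilloma arrays had medians of 3.12 to 3.16 and carcinoma arrays of 5.08 to 5.15, so these were treated as separately normalized and no level was compared between tumour types. Backgrounds were 3.09 to 3.33 in papilloma and 4.95 to 5.01 in carcinoma. All 11 epithelial genes, Epcam among them, lay above background on every array. No label says that replicates were different mice, and the p-values measure only how far these arrays differ. Xist, the X-inactivation transcript, and the Y-linked Eif2s3y were high on opposite arrays in 3 groups, all but control carcinoma, so replicates there did not hold RNA of 1 and the same mouse. Control papilloma replicate 2 and GOF replicate 1 were the papilloma arrays with Eif2s3y, at 6.66 and 6.85. In control carcinoma, replicate 1 read 8.78 for Xist and 3.79 for Eif2s3y, while replicate 2 read 6.51 and 7.45, both above background. Whether that array holds RNA of more than 1 mouse was not tested, and it bears on the carcinoma results given with and without it.

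The fibroblast genes above background were counted on each array. In control papilloma 7 of 9 were above background on each array, with 7 and 8 on the GOF arrays. In carcinoma the counts were 4 and 7 in the controls and 3 and 3 in LOF. By probe set, 10, 9, 9 and 11 of the members' 13 were above background on the papilloma arrays, controls first. Of all probe sets 43.0% to 53.3% were. On the carcinoma arrays 6, 10, 5 and 5 of 13 were, against 51.3% to 53.6% of all probe sets. There the members exceeded that share on control replicate 2 alone. Pdgfrb, Dcn and Fbln1 were above background on all 8 arrays, and Fap on none.

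**Figure D1:**
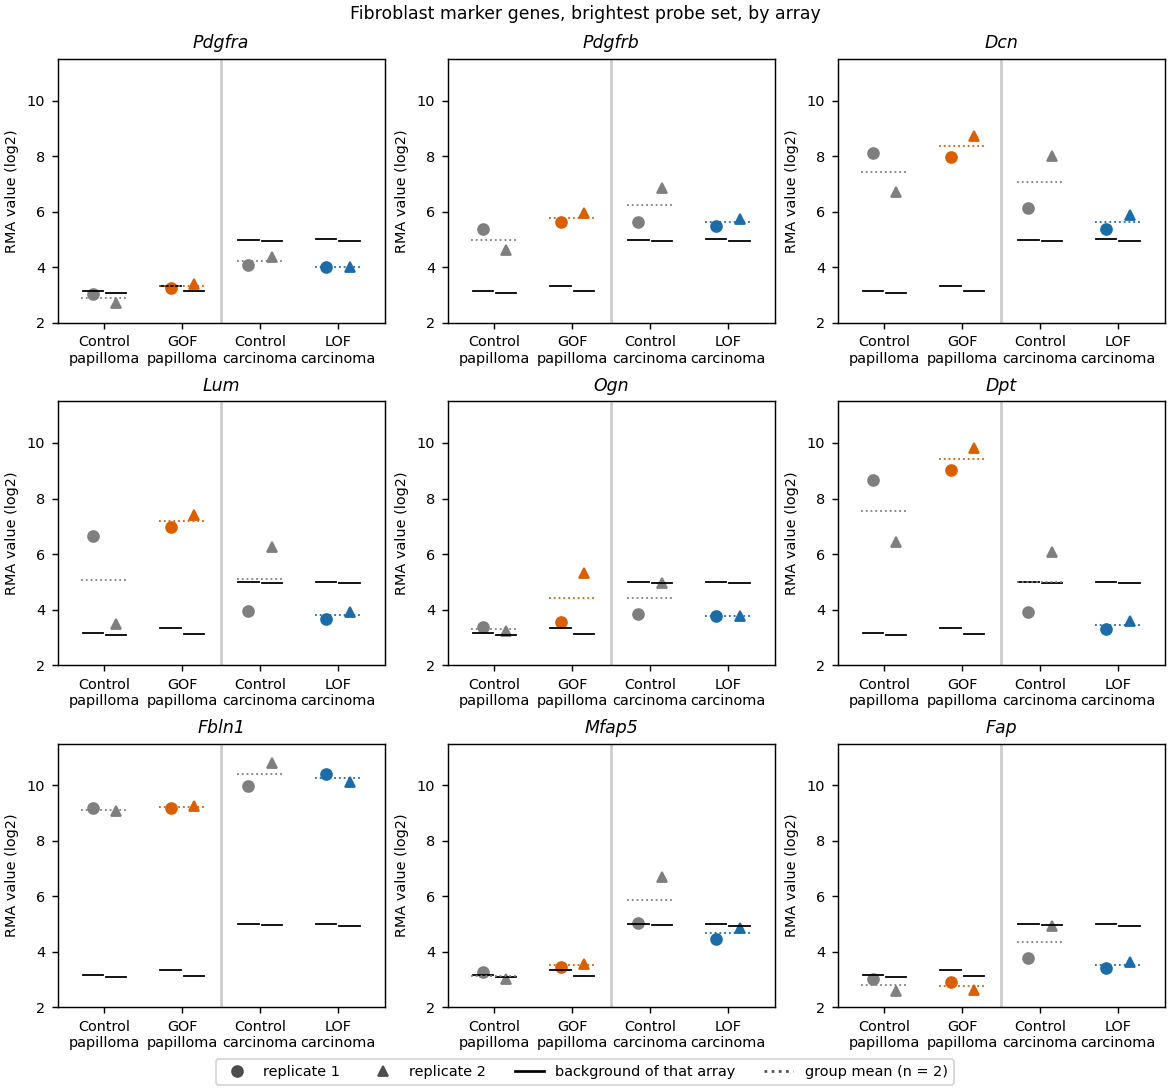
Deposited log2 value of each fibroblast gene's brightest probe set on each array, 1 panel per gene, with black ticks at that array's background and dotted lines at group means (n = 2). Control papilloma replicate 2 is low for Dcn, Lum and Dpt, control carcinoma replicate 2 is high for most genes, and papilloma and carcinoma values are not on a common scale.

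Among the receptors, Pdgfra was near background. Its probe set read 3.04 and 2.72 in control papilloma and 3.27 and 3.40 in GOF papilloma, and was above background on GOF replicate 2 alone. The carcinoma arrays read 4.08 and 4.36 in control and 4.02 and 4.02 in LOF, all below background. Pdgfra did not pass the filter on low values. When every probe set was tested, its GOF difference was 0.45 (SE 0.16, limma unadjusted p = 0.0252, limma adjusted p = 0.274). No fold is given, as both controls and GOF replicate 1 were below background.

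Pdgfrb read 5.37 and 4.61 in control papilloma and 5.62 and 5.95 in GOF papilloma. Both GOF arrays were above both controls, with replicate 2 the low control. The log2 difference was 0.79 (SE 0.42, limma adjusted p = 0.416), or 1.73-fold. In carcinoma Pdgfrb read 5.65 and 6.84 in the controls and 5.50 and 5.75 in LOF, so the groups overlapped. That difference was −0.62 (SE 0.42, limma adjusted p = 0.591).

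Of the proteoglycans, Dcn read 8.13 and 6.72 in control papilloma and 7.99 and 8.74 in GOF papilloma. GOF replicate 1 lay below control replicate 1, so the groups overlapped. The log2 difference was 0.94 (SE 0.70, limma adjusted p = 0.588), while the controls themselves differed 2.67-fold. In carcinoma Dcn read 6.12 and 8.02 in the controls and 5.40 and 5.89 in LOF. Both LOF arrays were below both controls, and replicate 2 was the high control. The difference was −1.43 (SE 0.70, limma adjusted p = 0.438), or 2.69-fold, against 3.72-fold between the controls.

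Lum, whose gene lies next to Dcn in the RefSeq gene order, had the widest spread of the set in control papilloma. It read 6.64 and 3.50 there, an 8.85-fold gap, and 6.97 and 7.39 in GOF papilloma. The GOF arrays lay just above control replicate 1 and far above replicate 2. The log2 difference was 2.11 (SE 1.08, limma adjusted p = 0.398), or 4.32-fold. In carcinoma Lum read 3.93 and 6.24 in the controls and 3.67 and 3.92 in LOF, and only control replicate 2 was above background. The difference was −1.29 (SE 1.08, limma adjusted p = 0.690), with no fold given, as control replicate 1 was itself below background.

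Ogn was close to background on most arrays. Its brighter probe set read 3.39 and 3.22 in control papilloma and 3.54 and 5.31 in GOF papilloma, so GOF replicate 2 alone stood out. The log2 difference was 1.12 (SE 0.59, limma adjusted p = 0.412). In carcinoma it read 3.84 and 4.97 in the controls and 3.75 and 3.76 in LOF, with control replicate 2 barely above background. That difference was −0.65 (SE 0.59, limma adjusted p = 0.725), with no fold given. The second Ogn probe set differed by 0.63 and −0.17.

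Dpt was among the brightest of the set in papilloma and below background on 3 of 4 carcinoma arrays. It read 8.67 and 6.43 in control papilloma and 9.03 and 9.83 in GOF papilloma, and both GOF arrays were above both controls. The log2 difference was 1.88 (SE 0.89, limma adjusted p = 0.359), or 3.68-fold, with the controls 4.73-fold apart. In carcinoma Dpt read 3.91 and 6.06 in the controls and 3.29 and 3.58 in LOF. Only control replicate 2 was above background. The difference was −1.55 (SE 0.89, limma adjusted p = 0.512), with no fold given, as control replicate 1 was itself below background.

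The elastic fibre genes had unlike patterns. Fbln1 read 9.16 and 9.08 in control papilloma and 9.19 and 9.25 in GOF papilloma, a difference of 0.09 (SE 0.27, limma adjusted p = 0.923). In carcinoma Fbln1 read 9.99 and 10.81 in the controls and 10.40 and 10.11 in LOF, a difference of −0.15 (SE 0.27, limma adjusted p = 0.908). The GOF arrays were just above the controls in papilloma, and the LOF arrays lay between the controls in carcinoma. The mean of the 3 Fbln1 probe sets gave a GOF difference of −0.14, the opposite sign.

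Mfap5 lay close to background in papilloma, at 3.26 and 3.02 in control and 3.44 and 3.58 in GOF by its brighter probe set. The log2 difference was 0.36 (SE 0.48, limma adjusted p = 0.799). In carcinoma it read 5.03 and 6.69 in the controls and 4.48 and 4.86 in LOF. Both controls were above background and both LOF arrays below it, but control replicate 1 by only 0.04 and LOF replicate 2 by only 0.09. The difference was −1.19 (SE 0.48, limma adjusted p = 0.348), at least 1.84-fold. Its unadjusted limma p of 0.0449 was the only one under 0.05 among the members in carcinoma. That SE pools the spread of all 4 groups. With the arrays of each tumour type fitted alone, it was 0.61 in carcinoma (limma adjusted p = 0.546). In papilloma it was then 0.16 (limma adjusted p = 0.337). The other Mfap5 probe set gave −0.97, and on control replicate 1 it was 0.81 below background.

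Fap read 3.03 and 2.57 in control papilloma and 2.91 and 2.64 in GOF papilloma. In carcinoma it read 3.77 and 4.92 in the controls and 3.42 and 3.63 in LOF. All 8 values were below background, so no fold is given.

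The first question was whether NR2F2 overexpression changed these genes in papilloma. With limma and Benjamini-Hochberg adjustment over 13939 genes, 0 of the 7 members tested passed 0.05 in papilloma, where 1.21% of all genes did. None of these 7 had an unadjusted limma p under 0.05, against 16.4% of genes. Pdgfra, which did not pass the filter, was at 0.0252 by limma when every probe set was tested. All 7 differences were positive, as were 53.6% of all genes, with a median of 0.94 against 0.02. Ogn passed the filter through GOF replicate 2 and control carcinoma replicate 2 alone, so its signs followed from the filter in both comparisons, and the counts over members are a description. Without Ogn the papilloma median was 0.86 and 6 of 6 were positive. In 6 of 7 (5 of 6 without Ogn) both GOF arrays were above both controls, against 27.3% of genes. In 0 of 7 was this by at least 1.5-fold in all 4 array pairs, against 3.9%. An exact permutation test of 2 arrays against 2 cannot go below p = 0.333. Single arrays moved these values, and for Dcn, Lum and Dpt the control papilloma arrays did so the most. Without control replicate 2 the median was 0.41, with Dcn at 0.23, Lum at 0.54 and Dpt at 0.76. GOF replicate 2 also mattered: without it the median was 0.56, with Dcn at 0.56 and Ogn at 0.23. Without control papilloma replicate 1, which left replicate 2 as the only papilloma control, Lum differed by 3.68. The Dpt difference was then also larger than with all arrays.

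For carcinoma the question was whether removing Nr2f2 changed them. By limma 0 of the 7 tested members passed, where 0.0143% of genes did, and 1 of 7 had an unadjusted p under 0.05, against 13.8%. All 7 differences were negative, against 48.9% of genes, with a median of −1.19 against 0.01. Without Ogn the median was −1.24. Lum, Dpt and Ogn were above background on 1 carcinoma array only, and with a filter on background within each tumour type 4 members were tested there, with a median of −0.91. In 5 of 7 (4 of 6 without Ogn) both LOF arrays were below both controls (19.1% of genes). In 0 of 7 was this by 1.5-fold in all 4 pairs (1.48%). Control carcinoma replicate 2 carried most of this. Without it the median was −0.13, with Pdgfrb at −0.02, Lum at −0.13, Dcn at −0.48, Dpt at −0.47 and Mfap5 at −0.37. Fbln1 turned to 0.27. Without replicate 1, which left the high replicate 2 as the only control array, Mfap5 was at −2.02.

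The LOF effect minus the GOF effect was negative for each of the 7 tested genes, with a median of −1.76. For Dpt it was −3.43 (SE 1.26, limma adjusted p = 0.306), as computed from values of which 3 of the 4 in carcinoma were below background, so the carcinoma part of it is not a measured size. By limma 0 of 7 passed, where 0.0789% of genes did, and 1 of 7, Dpt, had an unadjusted p under 0.05, against 14.2%. Without control carcinoma replicate 1, Mfap5 was at −2.38, and without control carcinoma replicate 2 at −0.73.

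**Figure D2:**
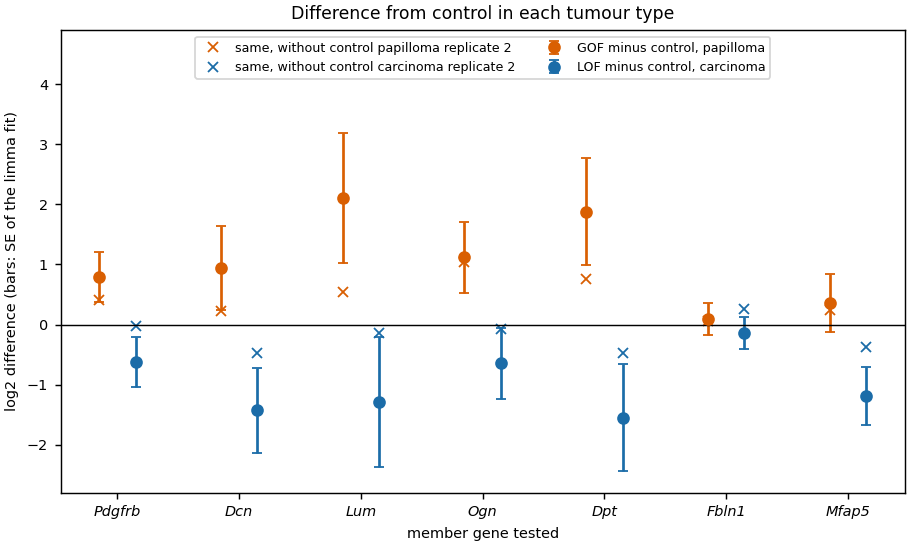
Log2 difference from control for the 7 tested genes in papilloma (orange) and carcinoma (blue), as limma estimates with SE bars, and crosses where control replicate 2 was left out. The papilloma estimate for Lum moves from 2.11 to 0.54 and the carcinoma estimate for Dpt from −1.55 to −0.47.

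Gaps between replicates of a full log2 unit were mostly in the controls. In control papilloma, replicate 1 exceeded replicate 2 by at least 1 log2 unit for 3 of the 7 genes, Dcn, Dpt and Lum, where 2.07% of genes did. In control carcinoma, replicate 2 exceeded replicate 1 by that much for 6 of 7, all but Fbln1, where 4.3% did. GOF replicate 2 exceeded replicate 1 so for 1 of 7, Ogn (0.545% of genes). In LOF carcinoma it did so for 0 of 7 (1.72%). All 7 were higher on replicate 1 in control papilloma and on replicate 2 in GOF papilloma. In both groups the lower array was that with Eif2s3y. Their medians of replicate 1 minus replicate 2 were 0.76 and −0.42, against 0.03 and 0.05 for all genes. In LOF carcinoma, with Eif2s3y on replicate 1, 6 of 7 were higher on replicate 2. Leaving out control papilloma replicate 2 left no control papilloma array with Eif2s3y. Whether sex bears on these values was not tested.

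**Figure D3:**
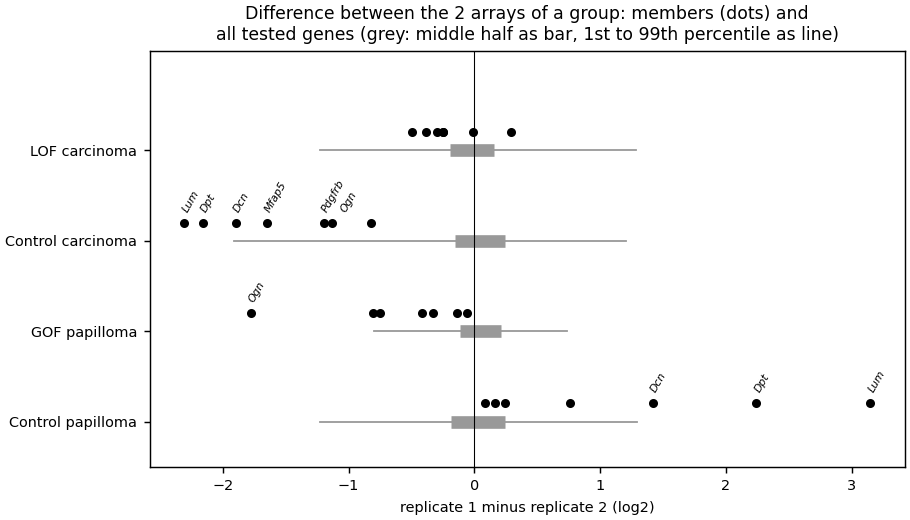
Replicate 1 minus replicate 2 in each group (log2), with dots for the 7 tested fibroblast genes and grey for all 13939 genes (bar, interquartile range; line, 1st to 99th percentile). Dcn, Dpt and Lum lie beyond the line in control papilloma, Lum and Dpt in control carcinoma, and Ogn, with Dpt at the line's end, in GOF papilloma.

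The tested members followed each other across arrays. After the mean of each tumour type was subtracted, the correlation with the mean of the other members over 8 arrays was 0.99 for Pdgfrb, 0.98 for Dpt and Dcn, 0.92 for Lum, 0.83 for Mfap5, 0.77 for Ogn and 0.68 for Fbln1. These points share the arrays and their normalization, and control carcinoma replicate 2 is high in nearly all of them. The nearest non-member genes among 797 that ranged over at least 1 log2 unit in both tumour types were Tnfaip6 (r = 0.99), Bicc1, Apod, Igf1, Mfap4 and C1qtnf3. Apod read 8.26 and 5.97 in control papilloma, 8.13 and 8.82 in GOF, 5.36 and 8.17 in control carcinoma and 5.02 and 5.40 in LOF. Apod was low on control papilloma replicate 2 and high on control carcinoma replicate 2. This follows from its being picked for likeness to the members over these same arrays.

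A longer list of 26 further fibroblast genes, many of them collagens and other matrix genes, had medians near those of the members. Of the 23 tested, 0 passed in either comparison by limma, with 0 unadjusted p-values under 0.05 in each. Their medians were 0.85 in papilloma and −1.01 in carcinoma. Over all 13939 genes 1.21% passed in papilloma and 0.0143% in carcinoma, so 0 calls in a list this small were near that share. Unadjusted limma p-values were under 0.05 for 16.4% and 13.8% of all genes. The same shares apply to the smaller lists below. Sfrp2, a secreted Wnt modulator, read 6.80 and 4.13 in control papilloma and 6.96 and 7.60 in GOF, and 6.24 and 8.48 in control carcinoma and 5.73 and 6.46 in LOF. The list was not uniform: 4 of the 23 were negative in papilloma and 4 positive in carcinoma. Of all genes 53.6% were positive in papilloma and 48.9% negative in carcinoma. Gas1, a growth arrest gene named after its value was seen, was at −1.33 in papilloma. Col1a2 and Pi16 were below background on every array, whereas 19 of the 26 were above it on all 8. Whether the probe sets of Col1a2 and Pi16 detect their transcripts was not tested. Of 6 tested further small leucine-rich proteoglycans 0 passed in either comparison by limma, with 0 unadjusted p-values under 0.05. Of 7 tested further elastic fibre genes 0 passed, with 1 unadjusted p under 0.05 in each comparison. Among these Fbln5 read 4.49 and 4.01 in control papilloma and 5.25 and 5.50 in GOF, a difference of 1.12 (limma adjusted p = 0.0577). Of the ligands of the receptors, Pdgfb and Pdgfc were tested and 0 passed in either comparison, with 0 unadjusted p-values under 0.05, and Pdgfd was below background on every array.

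Markers of some other cell types, though not all, were high on some of the same arrays. The mean of the 12 macrophage genes was 3.28 and 3.17 in control papilloma, 5.26 and 6.31 in GOF, 5.23 and 6.91 in control carcinoma and 5.11 and 5.45 in LOF. The mean of the 12 endothelial genes was 3.43 and 3.23 in control papilloma, 4.98 and 5.10 in GOF, 5.14 and 5.97 in control carcinoma and 4.91 and 5.05 in LOF. By limma 2 of 12 macrophage and 5 of 11 tested endothelial genes were higher in GOF (0.76% of all genes), and 1 of 11 epithelial genes, Epcam, was lower (0.452%). Of the macrophage genes 6 and 8 were above background in control papilloma, 12 and 12 in GOF, 10 and 12 in control carcinoma and 7 and 10 in LOF. Of the endothelial genes these counts were 8 and 6, 11 and 12, 5 and 11, and 5 and 5. Of all probe sets, each counted singly, 43.0% to 53.6% were above background on the 8 arrays. Rgs5, a pericyte gene, read 3.23 and 3.52 in control papilloma, 8.33 and 7.62 in GOF, 4.63 and 7.20 in control carcinoma and 3.71 and 5.19 in LOF. Of the 7 tested pericyte and smooth muscle genes 0 passed in either comparison by limma (1.21% and 0.0143% of all genes). Unadjusted limma p-values under 0.05 numbered 2 and 0 (16.4% and 13.8% of genes), and Des and Higd1b were never above background. The papilloma median of these 7 was 0.23, while Rgs5, at 4.60, was the highest. For 9 tested T cell genes the papilloma median was 0.02. It was −0.14, −0.17 and −0.02 for 3 tested Schwann, 3 melanocyte and 3 adipocyte genes. Both control papilloma arrays were low for the macrophage and endothelial lists, whereas Dcn, Lum and Dpt were low on replicate 2 alone. Of the other fibroblast genes, Fbln1 varied little there, and Mfap5, Ogn and Pdgfra lay near background on both controls. In carcinoma these lists and the fibroblast genes shared the high control replicate 2. Their part in the fibroblast values was not tested.

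**Figure D4:**
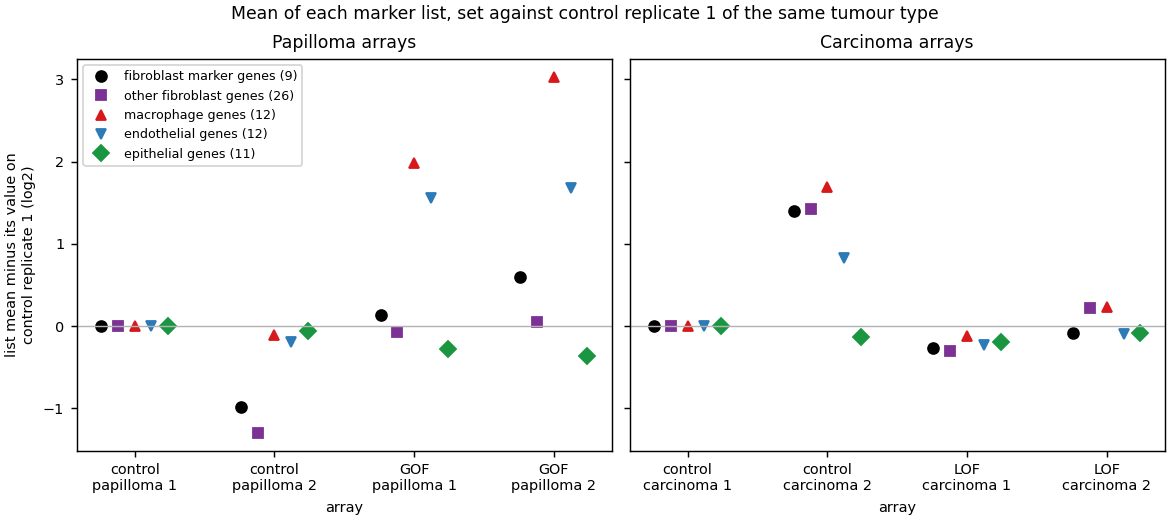
Mean log2 value of each marker list on each array minus its value on control replicate 1 of the same tumour type, for the 9 fibroblast genes, 26 further fibroblast genes, 12 macrophage, 12 endothelial and 11 epithelial genes. Macrophage and endothelial genes stand above both controls in GOF papilloma, while the fibroblast lists differ mainly on replicate 2 of each control.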

How the data were processed

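Gene expression in Epcam-sorted tumour cells was read on 8 arrays, and groups and replicate numbers came from the sample titles. Values are log2 RMA expression as the authors deposited them, per the labels; the submitters' processing notes also name affy, both without versions. Of 45141 probe sets, 28898 name 1 gene in the platform annotation, 551 several and 15588 none; 28689 were matched by Entrez number to RefSeq (GRCm38.p6) for symbols.

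Probe sets were kept if at least 2 arrays lay above 4.23 (log2), the median of the whole table. Each gene was represented by the kept probe set with the highest mean, leaving 13939 genes and 7 of the 9 members (not Fap or Pdgfra). The same cut served both tumour types, below the carcinoma backgrounds (4.95 to 5.01) and above the papilloma ones (3.09 to 3.33). Genes could thus enter on carcinoma values below background, and Mfap5 passed through carcinoma arrays alone. limma 3.58.1 in R 4.3.3 was fitted with 1 mean per group over all 8 arrays (4 residual and 2.67 prior degrees of freedom), with Benjamini-Hochberg adjustment over all genes at 0.05. A gene was above background where any of its probe sets exceeded the highest of 44 non-mouse controls on that array. Where both arrays of the dimmer group lay at or below background, the fold is a bound against background. Where an array of the brighter group was then below background too, no fold is given. The number of arrays limits the precision. Members and lists were chosen with earlier results of these data known. All 9 members are named, with list genes past the threshold or among the largest differences, and the 6 genes most like the members. The code was tested on simulated data. Alternatives covered normalization, filter, probe set choice, variance prior, background, replicate block and each array left out.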

Additional observations from a re-analysis of the deposited data

How the results depend on the processing

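Of 398 values of single members under the alternatives, 393 kept their direction and side of the threshold, 2 newly passed and 3 changed sign. The sign changes were all for Fbln1: −0.14 in papilloma with the mean of probe sets, and 0.27 in carcinoma and 0.17 for the difference between effects without control carcinoma replicate 2 (ranges with an array left out, −0.56 to 0.27 and −0.65 to 0.17). Both new calls were Mfap5 without control carcinoma replicate 1, where the high replicate 2 was the only control carcinoma array. With an array left out, members called ranged from 0 to 0 in papilloma, and from 0 to 1 in carcinoma and for the difference.

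Keeping a side of the threshold says nothing of stability in so small a design: without control carcinoma replicate 2, Pdgfrb in carcinoma went from −0.62 to −0.02 and Lum from −1.29 to −0.13. Over all genes, in papilloma, 169 genes called became 105 with quantile normalization of all 8 arrays, 111 with every probe set tested, and 1 to 297 with an array left out. In carcinoma, 2 became 0 with the mean of probe sets, 32 with a trended and robust prior, 0 with arrays of that tumour type alone, and 0 to 122 with an array left out. For the difference, 11 became 41 with a filter within tumour type, 36 with a stricter filter, 6 with the mean of probe sets, 6 with every probe set tested, 18 without shared probe sets, 68 with the trended prior, and 1 to 274 with an array left out. With the replicate number as a block the counts were 3, 0 and 3, and no member was called. Same-numbered arrays deviated together at r = 0.0018 in papilloma and 0.125 in carcinoma, so the numbers were not taken as pairing.

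The counts of members above background depend on how background is set. With the highest control of the tumour type they were 7, 5, 7 and 8 on the papilloma arrays and 4, 6, 3 and 3 on the carcinoma arrays, controls first. With 0.5 log2 units added, the members above it were 4 on control papilloma replicate 2 and 1 on LOF carcinoma replicate 1. With GC-binned control sets included, an alternative chosen after seeing the data, they were 4 on control papilloma replicate 2 and 4 on GOF papilloma replicate 1. They were then 1 and 2 on the control carcinoma arrays, and 1 and 1 on the LOF arrays. The share of all probe sets was not counted at these other levels.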
